A study of Homo sapiens with 18 samples.

Results

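The 9 arrays of PMA-treated cells were compared by line: HL60, THP-1 and U937, each set against the mean of the other lines, with 3 arrays per line out of 18 arrays in all. The treatment was phorbol 12-myristate 13-acetate (PMA) at 30 nM, kept on the cells over 3 days. The other 9 arrays, 3 per line, came from cells given only its vehicle, dimethyl sulfoxide (DMSO), for the same 3 days. HL60 is an established human promyelocytic leukaemia line, THP-1 an acute monocytic leukaemia line and U937 a line from a histiocytic lymphoma with monocytic features. All were grown in RPMI1640 with fetal calf serum, and no transgene or knockdown is named in the labels. Each line stands for 1 malignancy, so a difference between lines is not one between cell types. Total RNA was measured on Affymetrix human exon arrays, and the labels do not say whether the arrays of a group come from separate cultures. The p-values therefore measure only the spread between these samples.

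PMA mimics diacylglycerol, the second messenger that activates protein kinase C, and drives these lines to stop dividing, to attach to plastic and to take on features of macrophages. HL60 starts from a granulocyte precursor, which carries enzymes for neutrophil granules, while THP-1 and U937 start closer to a monocyte. Macrophages differ by what they take up, secrete and adhere to: scavenger receptors bind modified lipoproteins, matrix metalloproteinases cut the extracellular matrix, and chemokines recruit other leukocytes. The question here was which genes separate the end states that the same agent produced in 3 different lines.

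A gene's level was the mean of its log2 probe-set values after quantile normalization of all 18 arrays, and 16260 genes had at least 3 probe sets of their own. A line difference is the mean level of a line minus the mean of the other 2 lines, in log2 units. The line differences of a gene cancel over the 3 lines, so a line that is low by itself raises those of the others. A gene was called where limma's adjusted p lay under 0.05, and it was taken as marking a line where the difference was also at least 1 log2 unit, which is 2-fold, and the 3 arrays of the line all lay beyond the 6 others. That last condition alone was met upward by 9.79% of all genes in HL60, 9.48% in THP-1 and 9.42% in U937, and downward by 9.15%, 9.58% and 7.71%. A level under 5.12, the 30th percentile of all probe sets, is low, and differences that start there are approximate. Levels are set across lines but never between genes.

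Before their use, the arrays were checked for sets that the labels do not name. Leaving aside the U937 arrays numbered 2, 39 to 116 deposited values were exactly the same in both arrays of a pair from one line, against at most 7 for pairs from different lines. The arrays of a line may therefore have been normalized together by the submitters, and such a set cannot be told apart from the line. The U937 arrays numbered 2 shared at most 5 tied values with any other array, so they appear to have been processed apart. They offer a direct measurement. Of 603 genes that marked U937 upward when both were left out, U937 PMA 2 also lay above the 6 arrays of the other lines at 569, or 94.4%, against 21.9% of all genes. Of 616 that marked it downward, 590 (95.8%) also lay below in U937 PMA 2, against 16.2% of all genes. The SD over genes of the difference between an array and the mean of its group mates was 0.235 to 0.510 log2. U937 PMA 2 lay within this range at 0.323. As deposited, however, it had the lowest median of all arrays, 6.184 against 6.431 or more, and 83228 distinct values against 214471 to 220516 in the others.

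The label of a macrophage-like state was checked against 18 macrophage markers, of which 15 were measured. With PMA, 12 of the 15 lay above the low level in HL60, all 15 in THP-1 and 12 in U937. The 3 that were low in HL60 with PMA were MSR1, CD163 and FCGR1A, and the 3 in U937 were MSR1, LPL and CTSL. Against DMSO, 12 rose and 2 fell in HL60, 13 rose and 0 fell in THP-1, and 11 rose and 0 fell in U937. Over all genes, 15.9%, 16.1% and 13.2% rose in these lines and 14.8%, 16.1% and 14.2% fell. Of 10 markers of granulocyte precursors, 8 fell in HL60, 6 in THP-1 and 4 in U937, and none rose. Of 6 T and NK cell markers, CD3D, CD3E, CD3G and CD2 were low in all 3 lines and the other 2 lay above the low level. Both B cell markers measured and all 4 erythroid and megakaryocyte markers measured also lay above it in every line, as did 4 of 6 epithelial and fibroblast markers. Of 4 osteoclast markers measured, 1 rose with PMA in HL60, 3 in THP-1 and 3 in U937, and none fell. Of 8 dendritic cell markers measured in this check, 3 rose in HL60, 3 in THP-1 and 1 in U937, and 1 fell in each line. A level above the low one and a rise with PMA were thus not confined to the macrophage markers. Lying above the low level alone therefore cannot tell a macrophage-like state from another. In bulk RNA, fewer cells with a transcript and less of it per cell cannot be told apart.

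The end states differed at many genes. With limma and Benjamini-Hochberg adjustment, HL60 differed from the mean of the other lines at 5210 genes (32.0% of those tested), THP-1 at 5260 (32.3%) and U937 at 4862 (29.9%). Genes that marked HL60 numbered 689 upward (4.24% of all genes) and 698 downward (4.29%). For THP-1 they numbered 824 upward (5.07%) and 532 downward (3.27%), and for U937 589 upward (3.62%) and 613 downward (3.77%). The lines lay farther from each other with PMA than with DMSO where HL60 was one of the pair. The root mean square difference over all genes between HL60 and THP-1 was 0.831 log2 with PMA and 0.721 with DMSO, and between HL60 and U937 it was 0.816 with PMA and 0.699 with DMSO. Between THP-1 and U937 it was 0.823 with PMA and 0.801 with DMSO, and that gain of 0.022 turned to -0.008 without U937 DMSO 3 and to -0.027 on the values as deposited. It was 0.001 without THP-1 DMSO 3 and 0.048 without THP-1 PMA 3. The gain between HL60 and THP-1 was 0.054 without THP-1 DMSO 3, and that between HL60 and U937 was 0.059 without U937 DMSO 3 and 0.029 on the values as deposited. These distances are descriptions without a test.

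**Figure D1:**
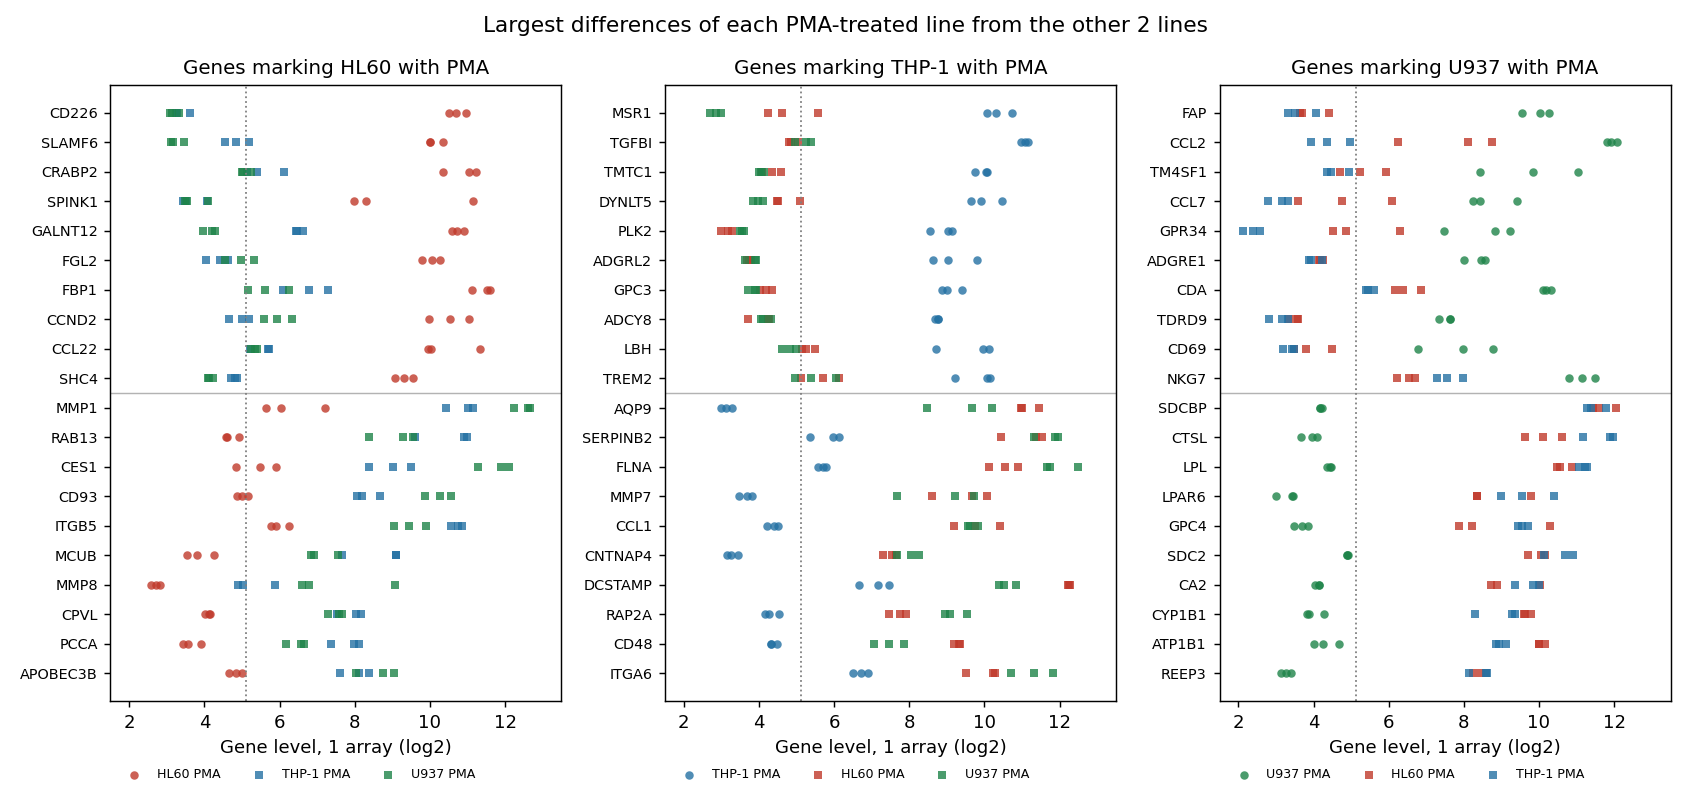
The largest marking genes of each PMA-treated line, each gene shown for 1 line, those higher above the grey rule and those lower below it. Each point is the level of a gene in 1 PMA array (log2, horizontal axis), circles for the line named in the panel and squares for the other lines, and the dotted line is the low level of 5.12. In every row the 3 circles lie beyond all 6 squares, as the rule for marking genes demands.

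A gene that marked more than 1 line is listed among the largest of the line where its difference was widest. Among the genes that marked HL60 upward were receptors known from lymphocytes, a chemokine and metabolic enzymes. Of 18 T and NK cell markers, a list without these receptors, 3 were called higher, 2 lower and 13 not called in HL60. Their median was 0.08, and of all genes 15.4% were called higher and 16.7% lower. CD226, the adhesion receptor DNAM-1 of NK and T cells, reached 10.69, 10.97 and 10.5 in the HL60 PMA arrays, against 3.24, 3.61 and 3.27 in THP-1 and 3.09, 3.15 and 3.32 in U937. All 6 arrays of the other lines were low, all 3 of HL60 were high, and 14 of 14 probe sets showed the same order. The difference was 7.44 ± 0.15 log2 (SE; limma adjusted p = 1.68e-14). SLAMF6, a homophilic receptor of lymphocytes, had 10.35, 10.00 and 10.00 in HL60, against 4.54, 4.85 and 5.20 in THP-1 and 3.16, 3.45 and 3.12 in U937. The groups did not overlap, and THP-1 and U937 were also separate from each other.

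CRABP2, which carries retinoic acid to its nuclear receptor, had 11.22, 10.36 and 11.04 in HL60, against 5.39, 5.14 and 6.11 in THP-1 and 5.03, 5.01 and 5.25 in U937. FBP1, the fructose bisphosphatase that opposes glycolysis, had 11.59, 11.52 and 11.13 in HL60, against 6.79, 6.09 and 7.29 in THP-1 and 5.62, 5.15 and 6.26 in U937. Both genes were high in HL60, and its arrays did not overlap those of the other lines. CCL22, a chemokine made by dendritic cells and macrophages that attracts regulatory T cells, had 9.95, 10.04 and 11.33 in HL60, against 5.69, 5.21 and 5.72 in THP-1 and 5.25, 5.4 and 5.34 in U937. Its line difference was 5.01 ± 0.24 (limma adjusted p = 2.94e-10).

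GALNT12, which starts O-linked glycans, had 10.58, 10.71 and 10.90 in HL60, against 6.44, 6.47 and 6.62 in THP-1 and 4.27, 3.96 and 4.20 in U937. SHC4, an adaptor of receptor tyrosine kinases, had 9.32, 9.07 and 9.54 in HL60, against 4.87, 4.82 and 4.71 in THP-1 and 4.22, 4.09 and 4.13 in U937. The trypsin inhibitor SPINK1 varied widely among the HL60 arrays, at 11.16, 7.98 and 8.30, against 3.43 to 4.10 over THP-1 and U937. The 3 HL60 arrays still lay above the other 6. FGL2, a fibrinogen-like protein that macrophages and T cells secrete, and cyclin D2 (CCND2), a partner of the G1 kinases, also marked HL60 upward. The level of CCND2 was high in HL60 and U937 with DMSO. It averaged 10.51 ± 0.52 with PMA and 9.44 ± 0.57 with DMSO in HL60 (SD, n = 3 each), and 5.95 ± 0.37 with PMA and 8.32 ± 0.56 with DMSO in U937.

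Among the genes that marked HL60 downward were matrix metalloproteinases, an integrin subunit and some surface proteins of monocytes. Such proteins went both ways. Of 25 measured macrophage and monocyte surface markers, 6 were called higher and 9 lower in HL60, with a median of -0.05. Of all genes, 15.4% were called higher and 16.7% lower. Of the 25, 5 marked HL60 upward and 5 downward. CD86 and FCGR2B were among those called higher, by 3.66 and 3.33. The interstitial collagenase MMP1 had 7.20, 6.05 and 5.64 in the HL60 PMA arrays, against 11.16, 11.01 and 10.42 in THP-1 and 12.66, 12.61 and 12.23 in U937. THP-1 and U937 were also separate from each other, U937 above. The line difference of HL60 was -5.39 ± 0.56 (limma adjusted p = 1.61e-06). MMP1 rose with PMA in all 3 lines, by 2.28 in HL60, 7.20 in THP-1 and 6.18 in U937, each called.

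The integrin subunit ITGB5, which pairs with the alpha v chain to bind vitronectin, had 5.91, 5.78 and 6.24 in HL60, against 10.57, 10.76 and 10.86 in THP-1 and 9.90, 9.05 and 9.45 in U937. CD93, a receptor of monocytes and endothelium, had 5.17, 4.88 and 4.99 in HL60, against 8.19, 8.07 and 8.68 in THP-1 and 9.86, 10.27 and 10.56 in U937. Carboxylesterase 1 (CES1), abundant in monocytes and liver, had 5.47, 4.85 and 5.91 in HL60, against 9.51, 9.01 and 8.39 in THP-1 and 12.10, 11.88 and 11.28 in U937. HL60 lay lowest at all 3 genes, while THP-1 was highest for ITGB5 and U937 for CD93 and CES1. Other genes listed downward were the vesicle GTPase RAB13, the neutrophil collagenase MMP8, the carboxypeptidase CPVL, the mitochondrial proteins MCUB and PCCA, and the cytidine deaminase APOBEC3B. Their line differences ran from -3.49 in APOBEC3B to -5.10 in RAB13.

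The haemoglobin scavenger receptor CD163 showed a difference that was absent with DMSO. It had 3.66, 3.62 and 3.76 in HL60 with PMA, against 6.82, 7.28 and 6.63 in THP-1 and 8.20, 7.04 and 5.89 in U937. With DMSO it was low everywhere, at 3.67 ± 0.12 in HL60, 3.68 ± 0.34 in THP-1 and 3.56 ± 0.14 in U937 (SD, n = 3 each). CD163 thus rose with PMA in THP-1 by 3.23 and in U937 by 3.48 (limma adjusted p = 6.68e-06 and 4.68e-06), and in HL60 its PMA minus DMSO difference was 0.01 (adjusted p = 0.986). FCGR1A, the high-affinity IgG receptor, had 4.20, 3.86 and 4.0 in HL60, against 7.75, 7.79 and 7.18 in THP-1 and 6.84, 6.89 and 6.81 in U937, and in HL60 it fell by 2.52 against DMSO. It is read by only 3 probe sets and has near-identical copies in the genome, so its value may include theirs.

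Among the genes that marked THP-1 upward were a scavenger receptor, signalling enzymes and a matrix protein. MSR1, the class A scavenger receptor that takes up modified lipoproteins, had 10.08, 10.74 and 10.30 in the THP-1 PMA arrays, against 4.61, 4.25 and 5.58 in HL60 and 2.86, 2.69 and 3.00 in U937. The 3 lines did not overlap, and U937 was the lowest. The line difference of THP-1 was 6.54 ± 0.21 (limma adjusted p = 2.52e-12) and was present in 19 of 19 probe sets. With DMSO, MSR1 was low in each line, at 3.19 ± 0.04 in THP-1, 2.88 ± 0.04 in HL60 and 2.89 ± 0.07 in U937. It rose with PMA in THP-1 by 7.18 and in HL60 by 1.93, and in U937 its change of -0.04 did not pass the test (adjusted p = 0.921).

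TGFBI, a matrix protein that integrins bind, had 10.97, 11.07 and 11.17 in THP-1, against 5.03, 4.79 and 4.86 in HL60 and 5.25, 5.38 and 4.95 in U937. TREM2, a lipid-sensing receptor of tissue macrophages and microglia, had 10.14, 10.07 and 9.22 in THP-1, against 6.12, 5.13 and 5.70 in HL60 and 6.06, 4.97 and 5.39 in U937. For both, THP-1 stood alone and the other lines overlapped. Most of the TGFBI difference was there with DMSO too: TGFBI averaged 9.96 ± 0.20 in THP-1 with DMSO, against 4.98 ± 0.14 in HL60 and 4.71 ± 0.24 in U937 (SD, n = 3 each).

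The stress-responsive polo-like kinase PLK2 had 8.55, 9.04 and 9.13 in THP-1, against 3.18, 3.00 and 3.27 in HL60 and 3.50, 3.54 and 3.60 in U937. ADCY8, an adenylate cyclase stimulated by calcium and calmodulin, had 8.76, 8.77 and 8.68 in THP-1, against 3.71, 4.25 and 4.26 in HL60 and 4.31, 4.11 and 4.05 in U937. It was low in every DMSO group, with means between 4.0 and 4.07. FERMT2 (kindlin-2), which activates integrins from inside the cell, had 7.43, 8.04 and 7.66 in THP-1, against 3.62, 3.65 and 3.68 in HL60 and 4.14, 4.13 and 3.80 in U937. CEMIP, a protein that degrades hyaluronan, also became a THP-1 gene with PMA, at 8.99, 9.06 and 9.04, against 5.07 to 5.87 over HL60 and U937. TMTC1, DYNLT5, ADGRL2, the glypican GPC3 and LBH also marked THP-1 upward, with differences between 4.54 and 5.75. CTSL, listed under U937, differed by 4.66 in THP-1.

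Among the genes that marked THP-1 downward were several that HL60 and U937 both carried at high levels. The aquaglyceroporin AQP9, a glycerol and water channel of neutrophils and macrophages, had 2.98, 3.11 and 3.27 in the THP-1 PMA arrays, against 10.98, 10.99 and 11.45 in HL60 and 9.68, 8.47 and 10.21 in U937. The difference of -7.18 ± 0.32 (limma adjusted p = 8.18e-11) rests on 3 probe sets, all of which showed it. Matrilysin (MMP7) had 3.67, 3.81 and 3.48 in THP-1, against 10.06, 8.60 and 9.66 in HL60 and 9.71, 7.67 and 9.22 in U937. The T cell chemokine CCL1 had 4.51, 4.41 and 4.21 in THP-1, against 9.76, 10.41 and 9.20 in HL60 and 9.82, 9.61 and 9.56 in U937. In these 3 genes HL60 and U937 were high, all 3 THP-1 arrays were low, and with DMSO the highest mean of any line was 5.12, for CCL1 in U937. AQP9, MMP7 and CCL1 rose with PMA in HL60 by 6.15, 6.31 and 5.23 and in U937 by 6.0, 5.96 and 4.54, all called, and in THP-1 their changes of -0.18, 0.72 and 0.22 did not pass the test.

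DCSTAMP, the receptor needed for cell fusion in osteoclasts and giant cells, had 6.66, 7.45 and 7.17 in THP-1, against 12.27, 12.22 and 12.24 in HL60 and 10.52, 10.39 and 10.85 in U937. All 3 lines raised it with PMA, by 3.79 in THP-1, 8.58 in HL60 and 6.31 in U937, each called. SERPINB2 (PAI-2), which inhibits the urokinase plasminogen activator, had 5.96, 6.12 and 5.37 in THP-1, against 11.53, 11.37 and 10.44 in HL60 and 11.96, 11.87 and 11.32 in U937. It fell with PMA in THP-1 by 1.24 and rose in HL60 by 2.60 and in U937 by 1.28. Filamin A (FLNA), which crosslinks actin and links it to integrins, had 5.79, 5.56 and 5.71 in THP-1, against 10.13, 10.90 and 10.56 in HL60 and 11.66, 11.75 and 12.48 in U937. It separated THP-1 already with DMSO, where it averaged 5.53 ± 0.15 in THP-1, 10.64 ± 0.40 in HL60 and 10.90 ± 0.32 in U937. CNTNAP4, RAP2A, CD48 and the laminin receptor subunit ITGA6 also marked THP-1 downward, with differences between -3.94 and -4.46. CCL2 and GPR34, listed under U937, differed by -5.40 and -4.52 in THP-1.

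Among the genes that marked U937 upward were chemokines for monocytes and surface proteins. FAP, a serine protease of the cell surface best known from activated fibroblasts, had 10.27, 10.04 and 9.55 in the U937 PMA arrays, against 3.69, 3.64 and 4.40 in HL60 and 3.31, 4.07 and 3.51 in THP-1. The difference of 6.18 ± 0.30 (limma adjusted p = 2.8e-10) was shown by 28 of 28 probe sets. FAP was already higher with DMSO in U937, at 6.88 ± 0.92, against 2.80 ± 0.10 in HL60 and 2.62 ± 0.21 in THP-1 (SD, n = 3 each). The monocyte attractant CCL2 had 11.91, 12.08 and 11.81 in U937, against 8.74, 8.10 and 6.26 in HL60 and 4.96, 4.35 and 3.93 in THP-1. Its relative CCL7 had 9.42, 8.24 and 8.42 in U937, against 6.08, 4.75 and 3.60 in HL60 and 3.31, 2.78 and 3.16 in THP-1. For both chemokines the order was U937, HL60, THP-1 with no overlap between the lines. At CCL7 the THP-1 arrays and most HL60 arrays were low, so the distance between these lines is approximate.

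TM4SF1, a tetraspanin-like surface protein, had 11.03, 8.42 and 9.85 in U937, against 5.23, 4.71 and 5.94 in HL60 and 4.47, 4.95 and 4.35 in THP-1. GPR34, a lysophosphatidylserine receptor of microglia and mast cells, had 9.24, 8.83 and 7.48 in U937, against 6.30, 4.86 and 4.53 in HL60 and 2.57, 2.38 and 2.11 in THP-1. ADGRE1, whose mouse form is a classical macrophage surface antigen, had 8.57, 8.01 and 8.45 in U937, against 4.25, 4.16 and 4.15 in HL60 and 4.23, 3.89 and 3.92 in THP-1. ADGRE1 rose with PMA in U937 by 3.02 and fell in HL60 by 1.10, both called. Endothelin-1 (EDN1), a vasoconstrictor peptide that macrophages can secrete, had 7.83, 7.63 and 7.31 in U937, against 4.12, 4.13 and 4.35 in HL60 and 4.83, 4.27 and 4.11 in THP-1. TDO2, which starts tryptophan breakdown, had 10.70, 8.96 and 9.29 in U937, against 4.96, 3.84 and 6.61 in HL60 and 6.62, 8.01 and 7.51 in THP-1. It rose with PMA in all 3 lines, by 6.37 in U937, 2.13 in HL60 and 2.93 in THP-1. CDA, TDRD9, CD69 and NKG7 also marked U937 upward, with differences between 4.09 and 4.23. CES1, listed under HL60, differed by 4.56 in U937.

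Downward, U937 was low at several genes that the other end states carried at high levels. SDCBP (syntenin-1), an adaptor for syndecans in exosome formation, had 4.23, 4.17 and 4.18 in the U937 PMA arrays, against 12.04, 11.61 and 11.44 in HL60 and 11.38, 11.78 and 11.29 in THP-1. It was as low with DMSO, at 4.24 ± 0.04 in U937, against 10.10 ± 0.33 in HL60 and 10.63 ± 0.39 in THP-1. The lysosomal protease cathepsin L (CTSL) had 4.10, 3.96 and 3.67 in U937, against 10.61, 9.64 and 10.12 in HL60 and 11.97, 11.88 and 11.17 in THP-1. Lipoprotein lipase (LPL), which frees fatty acids from lipoproteins, had 4.47, 4.43 and 4.37 in U937, against 10.57, 10.47 and 10.88 in HL60 and 11.07, 11.28 and 11.23 in THP-1. The line differences of U937 were -7.40 ± 0.18 for SDCBP, -6.99 ± 0.27 for CTSL and -6.49 ± 0.20 for LPL, with limma adjusted p of 2.05e-13, 2.03e-11 and 1.42e-12. All probe sets of the 3 genes (13, 13 and 14) lay below those of both other lines. CTSL and LPL rose with PMA in HL60 by 5.17 and 2.29 and in THP-1 by 2.72 and 2.46, and in U937 their changes of 0.14 and 0.29 did not pass the test.

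The sodium pump subunit ATP1B1 had 4.01, 4.26 and 4.69 in U937, against 10.17, 10.00 and 9.99 in HL60 and 8.86, 9.12 and 8.93 in THP-1. It rose with PMA in HL60 by 5.47 and in THP-1 by 1.96, and fell in U937 by 0.99. GEM, a small GTPase induced by mitogens, had 4.56, 4.20 and 4.47 in U937, against 9.05, 8.54 and 9.12 in HL60 and 8.96, 8.84 and 8.79 in THP-1, and it was low with DMSO in all 3 lines. The syndecan SDC2, a heparan sulfate proteoglycan, had 4.88, 4.91 and 4.88 in U937, against 10.16, 9.70 and 10.06 in HL60 and 10.69, 10.90 and 10.13 in THP-1. At GEM and SDC2 the HL60 and THP-1 arrays overlapped, and U937 stood alone below. LPAR6, GPC4, CA2, CYP1B1 and REEP3 also marked U937 downward, with differences between -5.18 and -5.93.

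**Figure D2:**
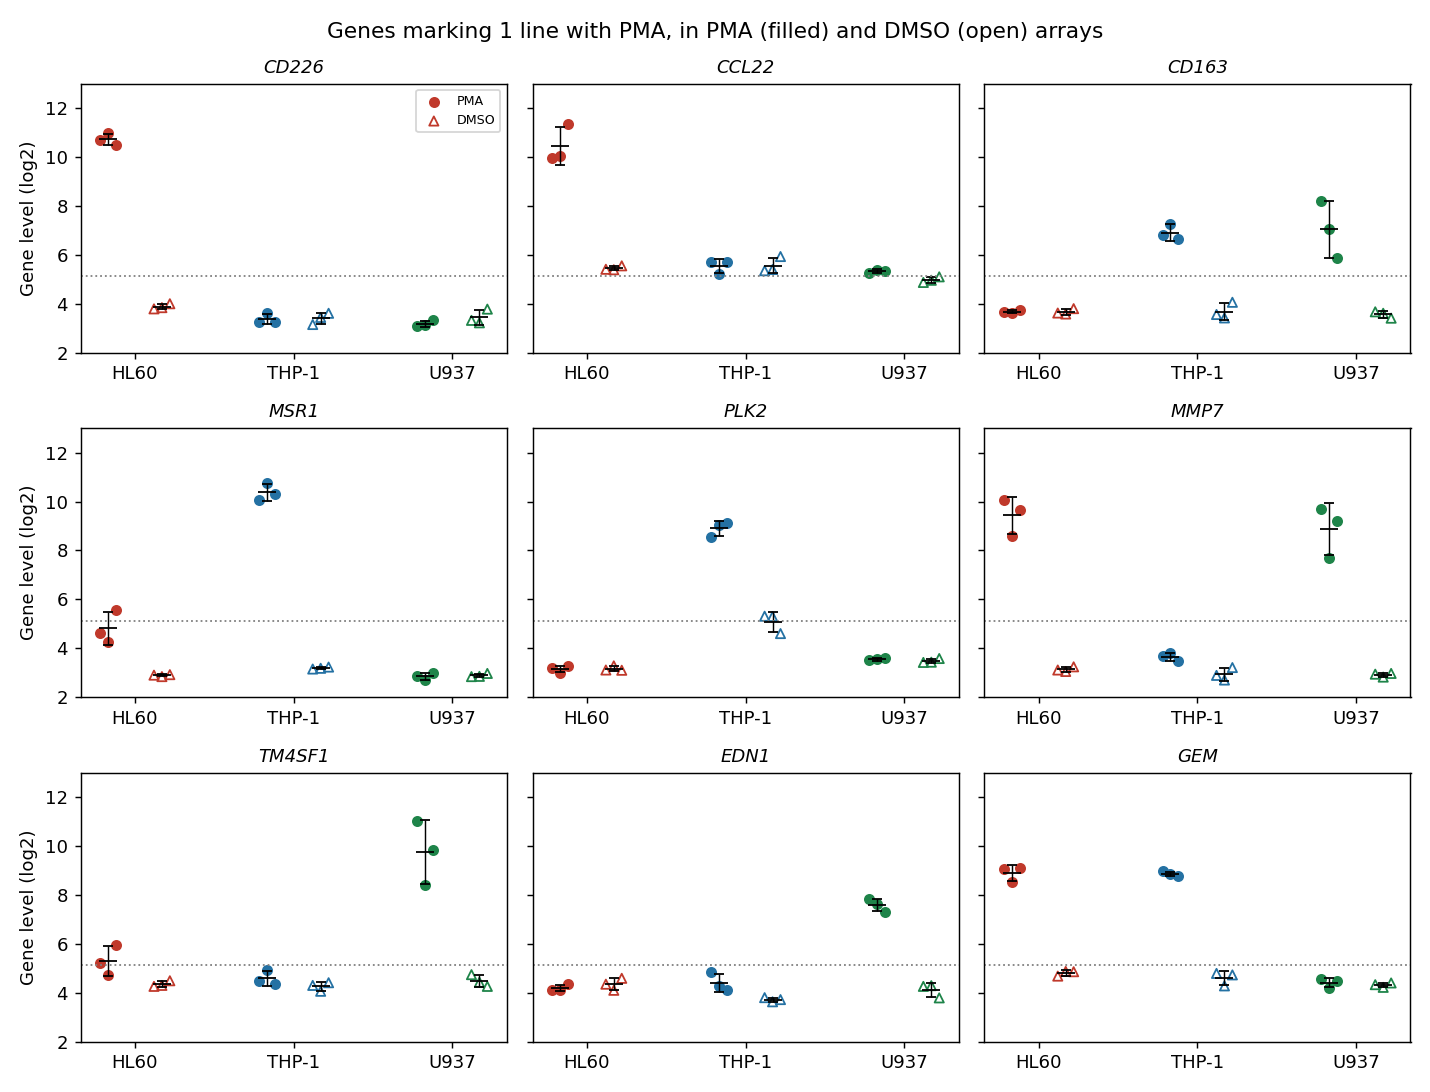
Levels of 9 genes that marked a line with PMA, in the PMA arrays (filled circles, left) and the DMSO arrays (open triangles, right) of each line. Each symbol is 1 array (log2, vertical axis), black bars are means ± SD of 3 arrays and the dotted line is the low level of 5.12. CD226, CCL22 and CD163 are shown for HL60, MSR1, PLK2 and MMP7 for THP-1, and TM4SF1, EDN1 and GEM for U937. With DMSO the mean of each gene was at most 5.56 in every line, while with PMA CD226, CCL22, MSR1, PLK2, TM4SF1 and EDN1 were high in 1 line and CD163, MMP7 and GEM in the other 2.

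Part of each end state was already there with DMSO. Of the genes marking HL60 upward, 43.3% were called higher in HL60 with DMSO too, where 11.8% of all genes were. For THP-1 that share was 71.7%, against 13.8% of all genes, and for U937 76.4%, against 14.1%. Downward, the shares were 64.0% in HL60, 68.6% in THP-1 and 72.3% in U937, against 14.0%, 13.7% and 13.0% of all genes. Across the 16260 genes, the line difference with PMA and that with DMSO, which come from separate arrays, correlated at r = 0.553 for HL60, 0.697 for THP-1 and 0.698 for U937. Genes are not independent replicates, so these are descriptions, and the differences between the lines' shares were not tested.

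A change of the line difference was tested directly, as the line difference with PMA minus that with DMSO. Any offset that belongs to all arrays of a line cancels in it. The limma fit without pairing called 2285 genes for HL60 (14.1% of all genes), 1755 for THP-1 (10.8%) and 1543 for U937 (9.49%). Upward changes were 7.92%, 4.88% and 4.23% of all genes and downward changes 6.13%, 5.91% and 5.26%. With the replicate number of each line as a block, the counts were 3763, 3087 and 2892. Without both U937 arrays numbered 2, the count for U937 was 888. Of the changes called for HL60, 56.4% were upward, against 72.3% on the values as deposited. For THP-1 the upward share was 45.2%, against 52.7% as deposited, and for U937 44.6%, against 24.0%. The median change over all genes was -0.03, 0.018 and 0.002 after quantile normalization and 0.148, 0.044 and -0.202 as deposited, and all changes given here are on the quantile-normalized scale.

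Genes were taken as acquired where they marked a line with PMA, the line difference with DMSO was under 0.5 log2 and the change was called. Acquired genes made up 320 of the 689 that marked HL60 upward (46.4%), 200 of 824 for THP-1 (24.3%) and 106 of 589 for U937 (18%). Downward they were 184 of 698 in HL60 (26.4%), 131 of 532 in THP-1 (24.6%) and 135 of 613 in U937 (22%). The difference between these shares was not tested. The acquired genes with the largest changes were, upward, CD226, CRABP2, SPINK1, FBP1 and SHC4 in HL60, MSR1, ADCY8, LBH, CEMIP and FERMT2 in THP-1, and CCL7, TM4SF1, GPR34, TDO2 and EDN1 in U937. Downward they were ITM2C, CD163, DYSF, FCGR1A and STMN1 in HL60, MMP7, SLC7A11, CCL7, GPR82 and TNFSF15 in THP-1, and MSR1, ATP1B1, GEM, TNFAIP8L3 and PNOC in U937.

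The reverse also occurred. Of the genes that marked a line with DMSO, the difference shrank to under 0.5 log2 with PMA, with a called change, at 66 of 285 upward and 68 of 505 downward in HL60, 115 of 772 and 60 of 408 in THP-1, and 85 of 608 and 57 of 548 in U937. SERPINB10, a serpin of bone marrow cells, averaged 3.66, 3.64 and 3.73 in HL60, THP-1 and U937 with PMA. With DMSO it averaged 10.28 ± 0.06 in HL60, 6.29 ± 0.32 in THP-1 and 4.35 ± 0.08 in U937. Eosinophil peroxidase (EPX) averaged 5.64 in HL60 with PMA, against 5.53 in THP-1 and 5.70 in U937. With DMSO it averaged 9.29 ± 1.33 in HL60, 5.20 ± 0.15 in THP-1 and 5.26 ± 0.11 in U937. The transcription factor DACH1 averaged 4.04 in U937 with PMA, against 4.01 in HL60 and 4.45 in THP-1. With DMSO it averaged 3.83 ± 0.15 in U937, 6.71 ± 0.29 in HL60 and 6.11 ± 0.32 in THP-1. In each, the line that stood apart with DMSO lay among the others with PMA.

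**Figure D3:**
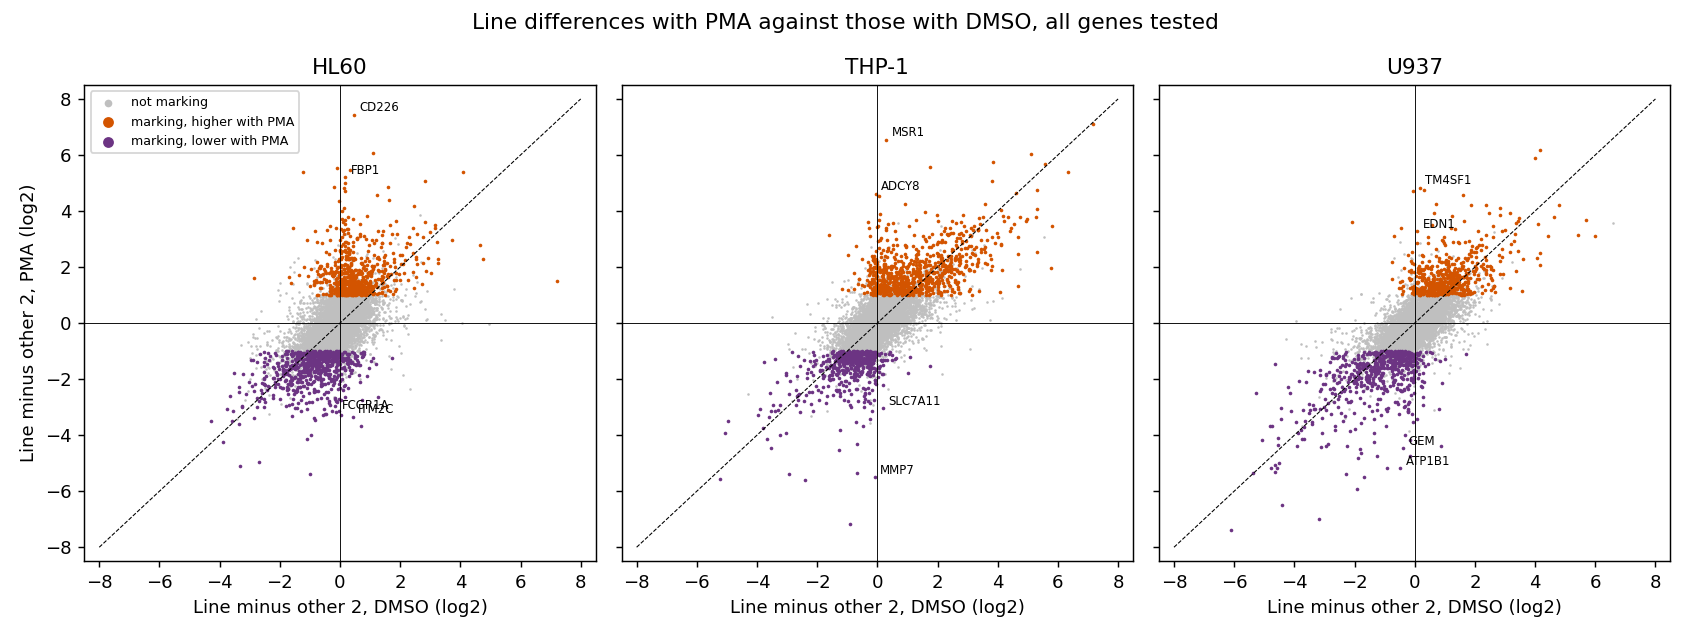
The line difference with PMA (vertical axis, log2) against the same line difference with DMSO (horizontal axis, log2), 1 point per gene for 16260 genes in each panel. Orange and purple points marked the line upward and downward with PMA, grey points did not, and the dashed line is equality. Points along the vertical axis, such as CD226 in HL60 and MSR1 in THP-1, had a line difference with PMA and little or none with DMSO.

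The promoters of the named marking genes were searched for the phorbol ester response element, the 7 bases that the AP-1 factors downstream of protein kinase C bind. The letters searched were TGAGTCA and TGACTCA, which are each other's reverse complement, so both strands were covered and the matches do not overlap. The windows ran from 250 bases before to 50 bases after each start in RefSeq (GRCh38.p14), and the element was found in 1738 of 35116 windows (4.95%). Counted by gene, with any of its starts, it was found in 693 of 12952 tested genes that have a window in the table (5.35%). Among genes marking a line the share was 6.90% upward and 5.77% downward in HL60, 6.18% and 7.46% in THP-1, and 6.96% and 7.02% in U937, which are descriptions without a test.

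Of 53 named marking genes with a window, 5 held it, and their sequences follow, 30 bases either side, 5′ to 3′ on the gene's strand with the element in capitals. They are shown because FGL2 and SHC4 were high in HL60 alone, RAB13 was low in HL60 alone and MMP7 and TNFSF15 were low in THP-1 alone.
FGL2 (chr7:77199832-77199898, minus strand): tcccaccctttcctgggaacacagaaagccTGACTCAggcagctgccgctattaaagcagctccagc
SHC4 (chr15:48963964-48964030, minus strand): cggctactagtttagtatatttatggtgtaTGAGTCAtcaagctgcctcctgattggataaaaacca
RAB13 (chr1:153985459-153985525, minus strand): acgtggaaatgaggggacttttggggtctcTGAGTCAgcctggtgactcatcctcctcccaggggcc
MMP7 (chr11:102530778-102530844, minus strand): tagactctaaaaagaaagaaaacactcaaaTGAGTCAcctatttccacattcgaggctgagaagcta
TNFSF15 (chr9:114792614-114792680, minus strand): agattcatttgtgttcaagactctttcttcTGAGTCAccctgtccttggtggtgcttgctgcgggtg

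RAB13 held a second element further on, on the other side of a short spacer. TNFSF15, a cytokine of the tumour necrosis factor family, had 5.18, 4.46 and 4.87 in THP-1 with PMA, against 8.12, 8.04 and 8.09 in HL60 and 8.44, 7.17 and 7.92 in U937. With DMSO it averaged 4.07 ± 0.16 in THP-1, 4.42 ± 0.38 in HL60 and 4.11 ± 0.13 in U937. The same letters thus stood before genes that were high in HL60 and genes that were low in HL60, and a match shows no binding. Most named marking genes with a window held no match in it, CD226 among them.

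Gene lists for the functions of macrophages were then read beside all genes, whose median line difference was 0.018 in HL60, -0.062 in THP-1 and 0.029 in U937. Of all genes, 15.4% were called higher and 16.7% lower in HL60, 15.7% and 16.6% in THP-1, and 14.8% and 15.1% in U937. Each list is given as members called higher, called lower and not called, without a test of the list.

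Cell cycle genes gave one-sided counts, and HL60 lay low. Of 32 measured genes of mitosis, 0 were higher, 29 lower and 3 not called in HL60, with a median of -1.75 log2, where 16.7% of all genes were lower. In U937, 23 were higher and 1 lower, with a median of 1.44, where 14.8% of all genes were higher. In THP-1, 9 were higher and 0 lower, with a median of 0.48, where 15.7% of all genes were higher. Without both U937 arrays numbered 2, the counts were 1 higher and 29 lower in HL60, 21 higher and 1 lower in U937, and 13 higher and 0 lower in THP-1. Topoisomerase II alpha (TOP2A), which untangles sister chromatids, had 4.37, 4.29 and 4.64 in HL60, against 6.2, 6.94 and 7.74 in THP-1 and 7.17, 7.78 and 7.0 in U937. The kinetochore protein CENPF had 3.76, 3.94 and 4.14 in HL60, against 5.19, 5.99 and 6.90 in THP-1 and 6.98, 7.79 and 6.78 in U937. HL60 lay below both lines at both genes. Of the 32 mitosis genes, 26 marked HL60 downward, 12 marked U937 upward and 1 marked THP-1 upward. The low levels of HL60 by themselves raise the line differences of U937 and THP-1.

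With DMSO the same list had medians of -0.62 in HL60, 0.18 in THP-1 and 0.50 in U937. Against DMSO, 30 of the 32 fell in HL60, by a median of 3.29 over the list, 31 fell in THP-1, by a median of 2.09, and all 32 fell in U937, by a median of 1.80. The change of the line difference was called downward at 19 and upward at 2 in HL60, upward at 9 and downward at 0 in U937, and downward at 1 in THP-1. Genes of DNA replication followed in HL60, with 0 of 38 higher and 26 lower and a median of -0.94. THP-1 had 22 of the 38 higher and 0 lower, with a median of 0.64. The helicase subunit MCM6 had 6.75, 6.41 and 6.27 in HL60, against 7.80, 8.33 and 8.17 in THP-1 and 8.64, 8.94 and 8.30 in U937. Over the replication list, 37 of 38 fell with PMA in HL60, 33 in THP-1 and 36 in U937.

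**Figure D4:**
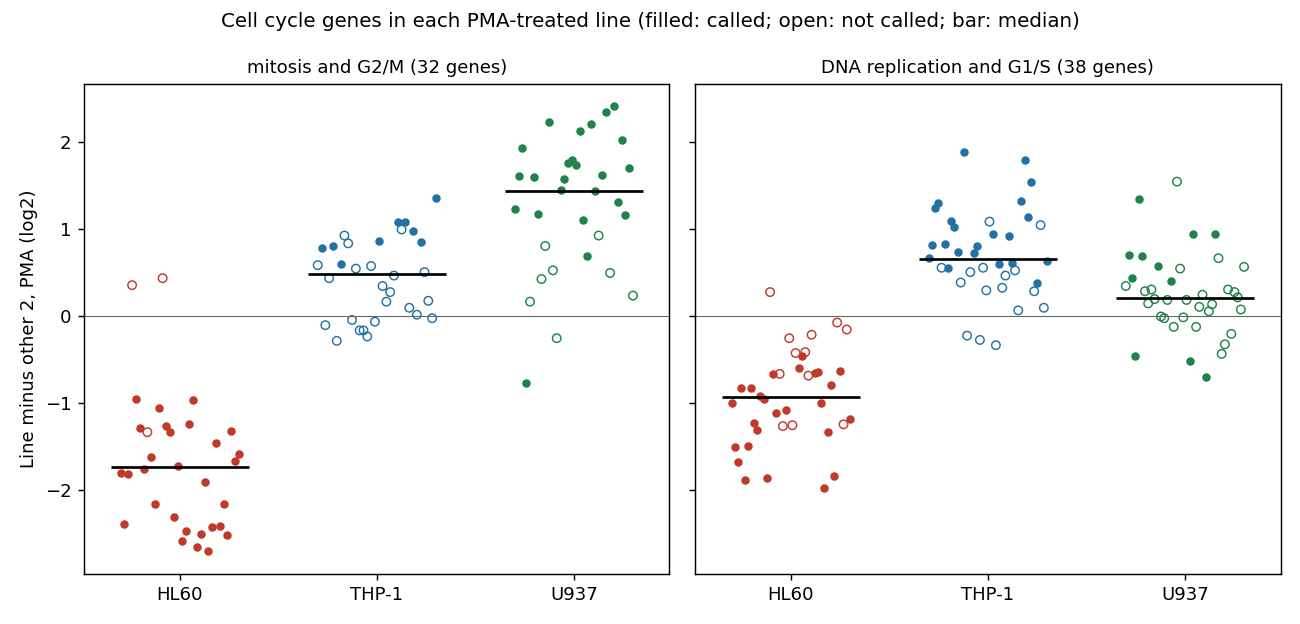
Line differences with PMA (vertical axis, log2) of 32 genes of mitosis and 38 of DNA replication, 1 point per gene in each line. Filled points were called by limma, open points were not, and black bars are medians. In HL60 the mitosis genes have a median of -1.75 and in U937 of 1.44, and the replication genes have medians of -0.94 in HL60 and 0.64 in THP-1.

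Of 22 measured genes of lipid handling and scavenging, 12 were higher in THP-1 and 2 lower, with a median of 0.71, where 15.7% of all genes were higher. In U937, 3 were higher and 13 lower, with a median of -0.66, where 15.1% of all genes were lower, and in HL60, 7 were higher and 11 lower. Without both U937 arrays numbered 2, U937 had 2 higher and 10 lower. Most of these genes rose with PMA in each line, 15 in THP-1, 14 in HL60 and 13 in U937. FABP4, a fatty acid carrier of macrophages and adipocytes, spread widely, at 9.93, 10.68 and 9.12 in THP-1, against 8.24, 4.65 and 6.18 in HL60 and 9.43, 7.56 and 7.24 in U937, and THP-1 overlapped U937. OLR1, the receptor for oxidized LDL, was highest in HL60, where it had 9.76, 9.61 and 9.39, against 6.38, 6.81 and 5.88 in THP-1 and 6.90, 5.51 and 6.24 in U937.

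Of 24 extracellular matrix genes, 13 were higher and 2 lower in THP-1, with a median of 0.64, where 15.7% of all genes were higher, against 2 higher and 8 lower in HL60 and 3 higher and 10 lower in U937. Versican (VCAN), a large proteoglycan, had 6.49, 6.82 and 6.97 in THP-1, against 3.75, 3.76 and 3.82 in HL60 and 3.83, 3.62 and 3.58 in U937. Thrombospondin 1 (THBS1), an adhesive glycoprotein of platelets and macrophages, had 7.25, 7.56 and 8.10 in THP-1, against 5.01, 5.78 and 5.35 in HL60 and 4.67, 4.51 and 4.45 in U937. VCAN was as high in THP-1 with DMSO, at 6.62 ± 0.83, while THBS1 averaged 4.86 ± 0.20 there. Matrix proteases and their inhibitors were called lower in HL60 at 13 of 24 genes and higher at 5, with a median of -0.65, where 16.7% of all genes were lower. MMP1, MMP8 and MMP7, given above, show that the members went different ways within a line.

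Cytokine and chemokine genes were called lower in THP-1 more often than higher. Of 27 cytokines, 0 were higher and 13 lower in THP-1, where 16.6% of all genes were lower, with a median of -0.46, against 8 higher and 2 lower in HL60 and 8 higher and 7 lower in U937. CSF1, the growth factor on which macrophages depend, had 11.34, 11.89 and 11.44 in HL60, against 7.20, 7.21 and 7.66 in THP-1 and 6.28, 6.05 and 6.62 in U937. It rose with PMA in HL60 by 5.87, in THP-1 by 1.73 and in U937 by 0.90, each called. IL1RN, which blocks the interleukin-1 receptor, had 11.14, 11.14 and 11.27 in HL60, against 7.63, 7.78 and 7.57 in THP-1 and 8.85, 7.84 and 9.08 in U937. IL32, a proinflammatory cytokine, had 9.63, 10.17 and 9.11 in U937, against 5.67, 6.12 and 5.87 in HL60 and 5.88, 5.86 and 5.59 in THP-1. It was as high in U937 with DMSO, at 10.20 ± 0.45.

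Of 24 chemokines, 1 was higher and 12 lower in THP-1, with a median of -0.76, where 16.6% of all genes were lower. In U937, 7 were higher and 3 lower, with a median of 0.44, where 14.8% of all genes were higher, and 5 were higher and 5 lower in HL60. Of 19 receptors for chemoattractants, 10 were higher and 2 lower in U937, with a median of 0.63, where 14.8% of all genes were higher. In THP-1, 3 were higher and 9 lower, and in HL60, 4 and 9. The formyl peptide receptor FPR2 had 7.96, 8.25 and 6.96 in U937, against 4.05, 4.09 and 3.90 in HL60 and 4.33, 4.22 and 3.91 in THP-1. The complement receptor C5AR1 had 10.54, 10.30 and 10.58 in U937, against 6.99, 7.5 and 7.06 in HL60 and 9.44, 9.31 and 9.37 in THP-1. CX3CR1, the fractalkine receptor of patrolling monocytes, had 8.15, 7.75 and 8.11 in THP-1, against 4.81, 5.23 and 5.13 in HL60 and 3.72, 3.55 and 5.23 in U937. C5AR1 was thus highest in U937 and CX3CR1 in THP-1, and at CX3CR1 the HL60 and U937 arrays overlapped.

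Of 27 interferon-stimulated genes, 0 were higher and 13 lower in HL60, where 16.7% of all genes were lower, with a median of -0.46, against 9 higher and 4 lower in THP-1 and 6 higher and 4 lower in U937. IFI6, a mitochondrial protein induced by interferon, had 8.88, 8.88 and 9.13 in HL60, against 11.20, 10.68 and 11.49 in THP-1 and 10.96, 11.03 and 11.07 in U937. Of 19 genes of cholesterol synthesis, 0 were higher and 11 lower in THP-1, where 16.6% of all genes were lower, with a median of -0.53, and 8 were higher and 2 lower in HL60. Among them MSMO1, a sterol oxidase, had 8.37, 8.95 and 8.89 in THP-1, against 10.89, 10.71 and 10.56 in HL60 and 9.24, 8.24 and 9.71 in U937. Of 18 dendritic cell markers, 9 were higher and 2 lower in HL60, where 15.4% of all genes were higher, with a median of 0.44, while 3 were higher and 8 lower in U937. Fascin (FSCN1), which bundles actin in mature dendritic cells, had 7.12, 7.06 and 6.91 in U937, against 9.97, 10.53 and 10.32 in HL60 and 10.62, 10.59 and 10.79 in THP-1.

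Of 34 myeloid transcription factors, 10 were higher and 10 lower in HL60, 6 and 12 in THP-1, and 10 and 8 in U937. Of 26 HOXA, MEIS and leukaemia factors, 5 were higher and 9 lower in HL60, 10 and 5 in THP-1, and 5 and 8 in U937. IRF8, which directs monocyte fate, had 6.11, 6.06 and 6.84 in HL60, against 9.31, 9.18 and 10.43 in THP-1 and 8.48, 8.17 and 8.67 in U937. ID3, an inhibitor of E proteins, had 9.65, 9.30 and 8.82 in THP-1, against 5.84, 5.63 and 6.03 in HL60 and 5.77, 5.99 and 5.49 in U937. The leukaemia factor MEIS1 had 7.73, 7.92 and 8.04 in U937, against 4.38, 4.43 and 4.24 in HL60 and 3.95, 4.17 and 4.04 in THP-1, and its partner HOXA9 had 4.97, 4.84 and 4.99 in HL60, against 8.44, 8.32 and 7.85 in THP-1 and 8.14, 8.22 and 7.34 in U937. With DMSO, too, MEIS1 was highest in U937 and HOXA9 lowest in HL60. Of 24 genes of oxidative phosphorylation, SDHA, a subunit of succinate dehydrogenase, was the one called, at -0.88 in HL60 and 1.02 in U937. The SEs over that list ran from 0.13 to 1.19 log2, so a large difference could be missed in the least precise members. Of 15 epithelial and fibroblast markers, at most 1 was called in any line.

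**Figure D5:**
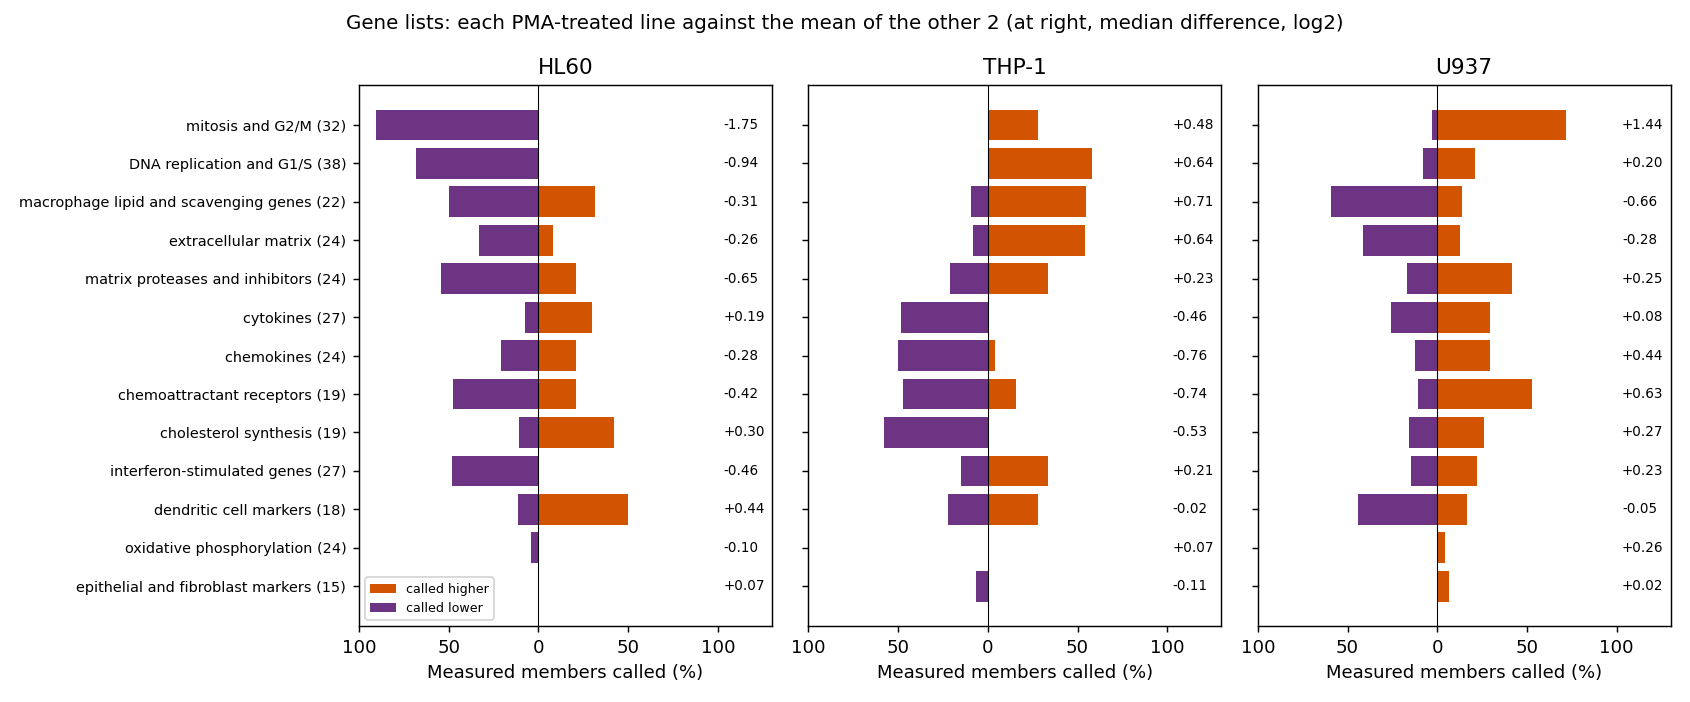
Share of the measured members of 13 gene lists that limma called higher (orange, right) or lower (purple, left) in each PMA-treated line against the mean of the other lines, with the number of measured members after each name. Numbers at the right of each panel are median line differences (log2). More mitosis genes are called lower than higher in HL60 (29 and 0) and higher than lower in U937 (23 and 1). In THP-1, matrix genes (13 higher, 2 lower) and lipid genes (12 and 2) lean right, and cytokines (0 and 13), chemokines (1 and 12) and cholesterol synthesis (0 and 11) lean left.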

How the data were processed

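RNA of 3 human leukaemia and lymphoma lines was measured on 18 exon arrays, 6 groups of 3. Per the submitters' processing notes, arrays were processed with Affymetrix Expression Console, while version, normalization and build were not given in the sources used here. The authors deposited 1 log2 value per exon-level probe set and array. Here they were quantile-normalized over all 18 arrays. Of 287329 probe sets, 261273 had exactly 1 gene symbol in the platform annotation, 9155 several and 16901 none. Of 16941 symbols, 14546 were current in RefSeq (GRCh38.p14), 2276 were updated and 119 kept. Genes with under 3 such probe sets (673) were left out, which left 16260.

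Group means were fitted with limma 3.58.1 in R 4.3.3 with the data.table package, version 1.17.8, with 12 residual and 15.66 total degrees of freedom. P-values are two-sided and Benjamini-Hochberg adjusted over all genes. The median SE was 0.153 log2 for a line difference and 0.217 for its change. The fit was tested on simulated data. For arrays, their number limits the precision. Tables and figures used Python 3.11.15, pandas 2.3.3, numpy 2.4.6 and matplotlib 3.10.9.

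PMA and DMSO arrays of one line with the same number deviated together from their group means (r = 0.28 to 0.79, 9 pairs). However, THP-1 PMA 1 and U937 PMA 2 correlated more with another number of their line (0.44 against 0.40, and 0.42 against 0.28). Numbers were taken to pair arrays within a line only in the alternative with the replicate block within each line. The main fit, which gave the results unless an alternative is named, used group means without this pairing. Across lines, same-numbered PMA arrays correlated at -0.45 to 0.65 and were not paired.

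Named genes are, per line, the 10 largest marking genes in each direction (each gene under the line of its widest difference), the 5 largest acquired in each direction and the 5 largest that converged, up to 4 per list, and the cell type markers. Y-linked genes, XIST and loci named only by a code were left out. The members and lists were chosen with earlier results of these data known. Alternatives were the values as deposited, centring on array medians, median polish, stricter filters, the PMA arrays alone, replicate blocks and leaving out arrays.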

Additional observations from a re-analysis of the deposited data

Results flagged for a closer look

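The difference of each line from the other 2 was not the same with PMA as with DMSO at 2285 genes for HL60, 1755 for THP-1 and 1543 for U937, by limma's test of that change itself. The values that follow are the line difference with PMA minus that with DMSO, in log2 units, for genes named among the largest, acquired or converged genes of a line at which it was called. Each gene is given for 1 line only, changes called in other lines are not listed, and the order is no ranking over all genes.

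In HL60, it was positive for CD226 (6.99), GALNT12 (6.65), CRABP2 (5.65), SPINK1 (5.13), SHC4 (5.05) and FBP1 (5.04). Further positive values were those of SLAMF6 (4.97), CCL22 (4.83), CAMK2D (2.50), CCND2 (2.25) and FGL2 (1.28). It was negative for SERPINB10 (-4.98), MMP1 (-4.41), MMP8 (-4.38), EPX (-4.03), ITM2C (-3.76), CNR2 (-3.37), CD163 (-3.34) and DYSF (-3.08). Further negative values were those of FCGR1A (-3.06), ITGB5 (-3.04), MCUB (-3.04), HSH2D (-3.02), STMN1 (-2.87), CES1 (-2.27) and RAB13 (-1.77).

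In THP-1, it was positive for MSR1 (6.24), ADCY8 (4.67), LBH (4.47), CEMIP (3.92), PLK2 (3.81) and FERMT2 (3.77). Further positive values were those of TENT5C (3.69), STAMBPL1 (2.38), TMTC1 (1.91), GPC3 (1.26) and TGFBI (0.91). It was negative for AQP9 (-6.25), MMP7 (-5.41), CCL1 (-4.66), DCSTAMP (-3.66), KYNU (-3.66), SLC7A11 (-3.22) and CCL7 (-3.19). Further negative values were those of SERPINB2 (-3.18), GPR82 (-3.15), TNFSF15 (-2.94), LILRB4 (-2.48), DSC3 (-2.24), ADGRL2 (-0.96) and CNTNAP4 (-0.91).

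In U937, it was positive for GPR34 (4.78), TM4SF1 (4.65), TDO2 (3.83), ADGRE1 (3.53), EDN1 (3.21), TEX15 (2.57) and DEFB1 (2.46). Further positive values were those of DACH1 (2.39), TDRD9 (2.36), PDE3B (2.36), FAP (2.01), CDA (1.85) and NKG7 (1.25). It was negative for ATP1B1 (-4.71), GEM (-4.08), LPAR6 (-4.01), TNFAIP8L3 (-3.99) and GPC4 (-3.82). Further negative values were those of CTSL (-3.80), PNOC (-3.67), SDC2 (-3.09), LPL (-2.09) and SDCBP (-1.28).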

How the results depend on the processing

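The counts of called and of marking genes stayed within 1.5 times the reported ones under every alternative that gave them. Leaving out 1 array at a time gave 4344 to 5306 called genes and 1377 to 1580 marking genes in HL60. It gave 4277 to 5343 and 1352 to 1586 in THP-1, and 3928 to 4941 and 1200 to 1362 in U937. With the replicate number across lines as a replicate block, which the samples did not bear out, 6164 genes were called in HL60 and 6177 in THP-1. The counts of changed line differences moved more. On the values as deposited they were 1379, 956 and 925 for HL60, THP-1 and U937, with the replicate block within each line, added after the data were seen, 3763, 3087 and 2892, and without both U937 arrays numbered 2, 888 in U937. The cause was not tested. Leaving out 1 array gave 1757 to 2395, 1414 to 1802 and 1099 to 1623.

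The gain in distance with PMA ranged from 0.054 to 0.149 for HL60 and THP-1 when 1 array was left out, from 0.059 to 0.151 for HL60 and U937 and from -0.008 to 0.048 for THP-1 and U937. For HL60 and THP-1 it was 0.138 over genes above the 30th percentile. For HL60 and U937 it was 0.029 as deposited and 0.096 after centring. For THP-1 and U937 it was -0.027 as deposited, 0.006 after centring and 0.041 over genes above the 30th percentile. For single genes, 186 results were followed: the line difference with PMA, or its change where the gene was named as converged. The changes of the other named genes were not followed. Of the 186, 178 kept their direction and call under every alternative that held the gene and the comparison, and 8 lost the call under some. Among the 8 was the change of DEFB1 in U937, with limma's adjusted p of 0.0891 without both U937 arrays numbered 2. None changed sign. Low signals limit differences: 313 of the 613 genes lower in U937 averaged under 5.12 there, as did 231 of 698 in HL60 and 161 of 532 in THP-1.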

Other observations

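Some line differences lay in runs of neighbouring genes, in the order of the RefSeq annotation, that were called the same way with PMA and with DMSO. In THP-1, 20 consecutive tested genes of chromosome 1, from PPIE to CTPS1 and including MYCL, were higher, with a median line difference of 2.04 log2 with PMA and 2.20 with DMSO. In THP-1, 10 consecutive genes of chromosome 10, from SLC25A28 to BLOC1S2, were lower, with medians of -1.07 with PMA and -0.98 with DMSO. In HL60, 8 consecutive genes of chromosome 22, among them APOBEC3A, APOBEC3B and APOBEC3G, were lower, with medians of -1.80 with PMA and -1.34 with DMSO. Another 8 in HL60, zinc finger genes of chromosome 19, were higher, with medians of 1.32 with PMA and 1.14 with DMSO. These runs were found by searching the results and carry no test.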
